A study of Homo sapiens with 34 samples.

Results

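The genes PAX2, PAX8, OSR1 and WT1, transcription factors used as markers of intermediate mesoderm, were taken by symbol from the deposited gene counts. Each symbol matched 1 identifier, so the set held 4 of 37951 genes, and all 4 were among the 17895 genes with enough counts to be tested. Intermediate mesoderm lies between the paraxial and the lateral mesoderm and gives rise to the kidney and much of the genital tract. OSR1, a zinc finger repressor, is among the earliest genes of this tissue and is also made by early lateral mesoderm. The paired box factors PAX2 and PAX8 act together in forming the nephric duct, and WT1, a zinc finger factor, is needed for the kidney and gonad and marks the mesothelium.

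The study asked how the position that cells reach in the primitive streak, the site through which mesoderm and endoderm form, bears on the fates they can take next. The wild type ESI017 line, established human embryonic stem cells, gave 34 libraries in 17 conditions with 2 biological replicates each. No protocol aimed at intermediate mesoderm. On day 1 the cells became definitive endoderm progenitors, DE(a), or anterior (APS), mid (MPS) or posterior (PPS) primitive streak, and were collected at 24 h or moved to a day 2 medium and collected at 48 h. DE(a) cells were given activin (100 ng/ml) and the Wnt agonist CHIR99021 (2 µM). APS cells were given activin (30 ng/ml), bFGF (20 ng/ml) and CHIR99021 (4 µM), while for MPS the last was set to 6 µM and BMP4 (40 ng/ml) was added, and PPS was MPS with no activin. The day 2 media were DE(b) for endoderm, PM for paraxial mesoderm and LM for lateral mesoderm, and every day 1 population was placed in each. DE(b) held activin (100 ng/ml) and the BMP receptor inhibitor LDN-193189 (250 nM). PM held the same dose of LDN-193189 with bFGF (20 ng/ml) and the TGFβ receptor inhibitor A-8301 (1 µM), as the methods give it. A legend of the study also lists CHIR99021 in the standard PM treatment, and its text describes PM induction as Wnt activation with BMP inhibition. LM held BMP4 (30 ng/ml), A-8301 (1 µM) and IWP2 (4 µM), which blocks Wnt secretion. The control cells stayed in mTeSR PLUS, a medium that keeps them pluripotent, and were labeled 48 h.

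Levels are given as CPM, estimated counts scaled by the library total, which is not corrected for gene length and is therefore not compared between genes. Library totals ran from 15522780 to 23439799 estimated counts, and 3 counts, taken as the floor, corresponded to 0.128 to 0.193 CPM. Calls rest on the quasi-likelihood test of edgeR, fitted over all libraries with p-values adjusted over all genes tested and a threshold of 0.05, and fold changes are given on the log2 scale with their standard error (SE). In these bulk samples, fewer cells that make a transcript and less of it per cell cannot be told apart. The labeled cell types were checked against their markers. Summed CPM of POU5F1, NANOG and SOX2 was 1815 to 2127 in the control libraries, and that of TBXT, MIXL1 and EOMES was 1574 to 2955 at 24 h. SOX17 and FOXA2 together reached 115 to 597 CPM in DE(b), but FOXA2 alone was at 105 CPM after DE(a), 66.0 CPM after APS, 27.5 CPM after MPS and 6.59 CPM after PPS, so the endoderm label was least borne out for PPS-DE(b). HAND1, FOXF1, GATA4 and ISL1 reached 585 to 2421 CPM in LM. In PM, the paraxial markers TBX6, MSGN1, MEOX1 and TCF15 summed to 205 to 281 CPM, which was almost all TBX6 and MSGN1, since the mean of MEOX1 was at most 3.41 CPM and that of TCF15 at most 2.39 CPM in any PM condition.

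PAX2 lies on the plus strand of chromosome 10 (GRCh38, 100735396 to 100829944) and PAX8 on the minus strand of chromosome 2 (113215997 to 113278921). OSR1 is on the minus strand of chromosome 2 (19351485 to 19358623) and WT1 on the minus strand of chromosome 11 (32387775 to 32435564). PAX8 overlaps the antisense gene PAX8-AS1 (113211421 to 113276581) over most of its length, while WT1 overlaps WT1-AS only from 32435518 to 32435564. Neither antisense symbol was found among the genes of the count tables. The strand setting of the quantification is not given in the sources used here, so reads of these pairs may not have been told apart. RefSeq promoter windows (GRCh38.p14) were found for 3 of the 4 genes, 7 windows in all, with no entry for OSR1. PAX2 was called in 24 of 38 comparisons and PAX8 in 0, where 0.0559% to 43.4% of all genes were called. The 250 bases before the outermost start of PAX2 (chr10:100735146-100735395, plus strand) and of PAX8 (chr2:113278922-113279171, minus strand) are shown because these are the paired box genes of the set, with CpG dinucleotides in capitals.
PAX2: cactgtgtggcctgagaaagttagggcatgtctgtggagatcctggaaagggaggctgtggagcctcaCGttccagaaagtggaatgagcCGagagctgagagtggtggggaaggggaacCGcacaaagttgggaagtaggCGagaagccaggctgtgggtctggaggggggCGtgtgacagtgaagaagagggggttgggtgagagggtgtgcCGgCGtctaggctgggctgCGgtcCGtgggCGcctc
PAX8: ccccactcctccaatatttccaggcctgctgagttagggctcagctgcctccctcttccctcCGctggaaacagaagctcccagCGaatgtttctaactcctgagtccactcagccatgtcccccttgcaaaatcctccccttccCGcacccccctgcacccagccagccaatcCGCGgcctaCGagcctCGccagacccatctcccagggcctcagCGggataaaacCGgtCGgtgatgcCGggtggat
The windows held 10 and 11 CpG dinucleotides, against a median of 11 over 35116 windows of the same length, and each had a GC content of 61.6%, against a median of 58%. Neither window held the TCF/LEF letters CTTTGA, the T-box letters AGGTGT, the GATA letters AGATAA or the CDX letters TTTATG on either strand. These letters occur in 11.2%, 9.57%, 9.17% and 9.64% of all windows. Over the 7 windows, CTTTGA was in 1, before an inner start of WT1 (chr11:32430814-32431063), and the other 3 motifs were in 0.

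OSR1 was high in PM medium whatever the day 1 treatment, and at 24 h it was highest in PPS. In the control it was at 0 in both libraries. At 24 h it was at 0.0518 and 0.0537 CPM in DE(a), at 0.142 and 0.275 CPM in APS, at 1.70 and 2.46 CPM in MPS, and at 10.7 and 5.00 CPM in PPS. The 4 populations did not overlap, and the DE(a) libraries held 1 count each. In DE(b) medium OSR1 was at 0 in both DE(a) libraries, at 0 and 0.296 CPM in APS, at 0.120 and 0.322 CPM in MPS, and at 10.8 and 7.09 CPM in PPS. In PM medium it was at 11.98 and 21.3 CPM after DE(a), 26.5 and 31.1 CPM after APS, 68.7 and 54.3 CPM after MPS, and 59.8 and 61.6 CPM after PPS. Every PM library was above every library of the other 13 conditions. In LM medium it was at 0.637 and 1.34 CPM after DE(a), 1.34 and 1.503 CPM after APS, 0.756 and 0.0474 CPM after MPS, and 1.23 and 0.274 CPM after PPS, so no LM library passed 1.503 CPM. In the order of mean levels, 7 of the 16 neighboring pairs of conditions did not overlap, and the highest pair, MPS-PM (61.5 CPM ± 10.2 SD, n = 2) and PPS-PM (60.7 CPM ± 1.29), did. The share of such pairs over all genes was not counted, so statements on overlap, here and below, only describe the levels.

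PAX2 rose from DE(a) to PPS at 24 h and was nearly absent in DE(b) medium. In the control it was at 0.135 and 0 CPM. At 24 h it was at 0.0518 and 0.0537 CPM in DE(a), 1.75 and 2.75 CPM in APS, 14.1 and 16.6 CPM in MPS, and 30.3 and 39.2 CPM in PPS, again with no overlap between populations. In DE(b) medium it was at 0 in all 4 libraries of DE(a) and APS, at 0.181 and 0.193 CPM after MPS, and at 1.595 and 1.21 CPM after PPS. In PM medium it was at 3.25 and 6.40 CPM after DE(a), 6.18 and 10.1 CPM after APS, 18.7 and 16.2 CPM after MPS, and 14.2 and 7.71 CPM after PPS. The PM libraries were all above the DE(b) libraries, and within PM the MPS libraries lay above the other 6. In LM medium it was at 3.18 and 4.16 CPM after DE(a), 3.06 and 1.503 CPM after APS, 0.582 and 3.75 CPM after MPS, and 9.02 and 13.3 CPM after PPS. The PPS-LM libraries lay above the other 6 LM libraries, and the 2 MPS-LM libraries differed more from each other than those of any other LM condition in proportion to their mean. The highest level of PAX2 was at 24 h in PPS (34.8 CPM ± 6.26 SD, n = 2), and 6 of 16 neighboring pairs in its order of levels did not overlap.

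**Figure D1:**
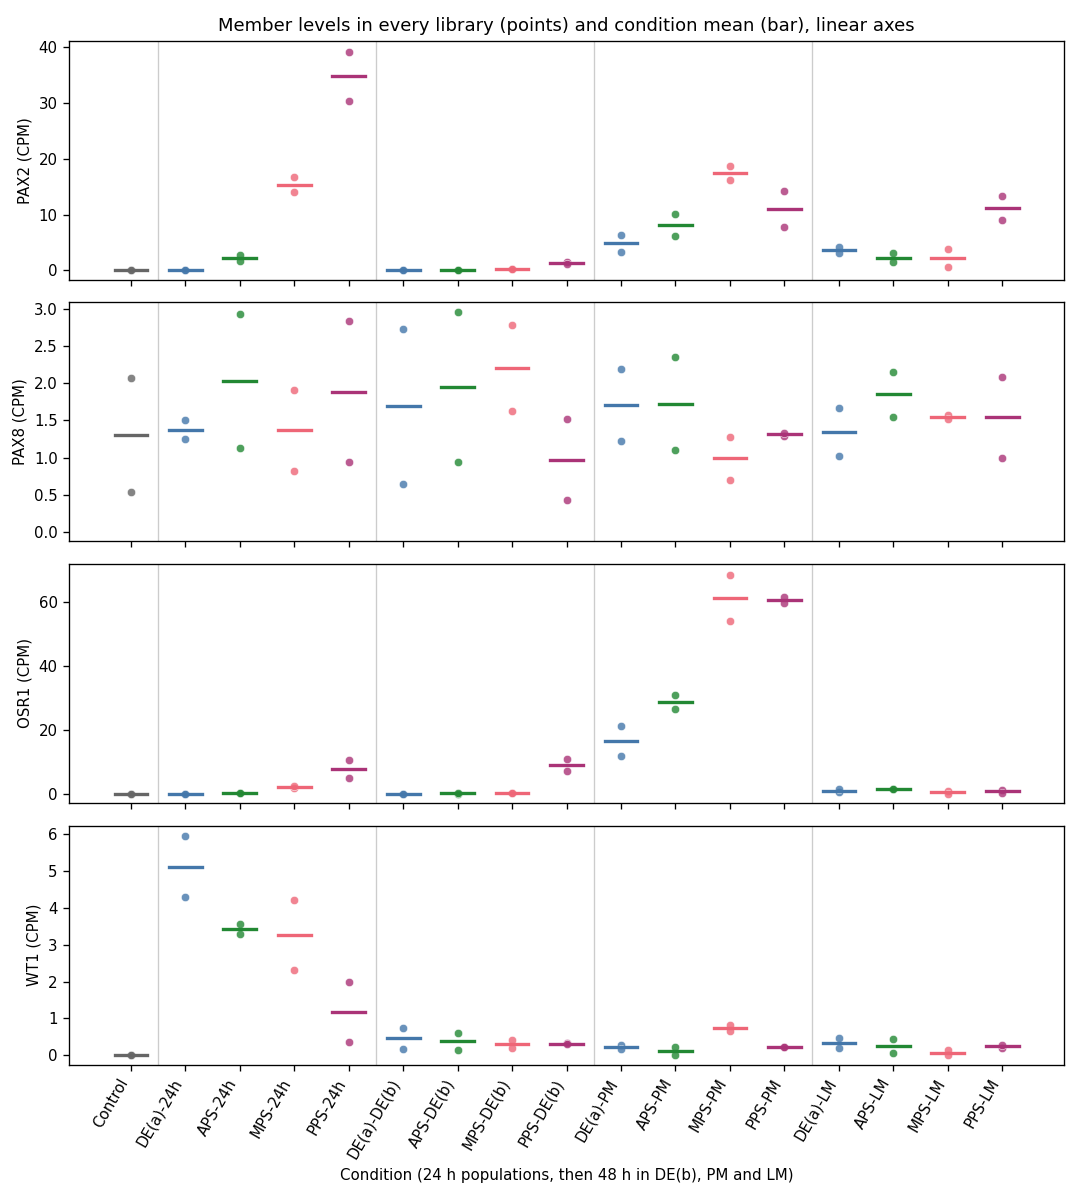
CPM of PAX2, PAX8, OSR1 and WT1 (vertical axes, linear, a different range for each gene) in the 17 conditions, with a point for each library and a bar at the mean of 2. OSR1 stands out in the 4 PM conditions (11.98 to 68.7 CPM), PAX2 in MPS and PPS at 24 h (14.1 to 39.2 CPM), and WT1 at 24 h, while the PAX8 libraries of different conditions overlap.

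PAX8 was measured at a low level throughout. It was at 0.544 and 2.07 CPM in the control, and its levels ran from 0.824 to 2.93 CPM (median 1.37) at 24 h, from 0.433 to 2.96 CPM (median 1.57) in DE(b), from 0.694 to 2.35 CPM (median 1.29) in PM and from 0.998 to 2.15 CPM (median 1.56) in LM. No neighboring conditions in its order of levels were without overlap (0 of 16). The library of replicate 2 was above that of replicate 1 in 16 of 17 conditions, with a median ratio of 2.08, and whether the replicate sets, which were deposited as separate tables, differ in preparation was not tested. In edgeR, PAX8 was called in 0 of 38 comparisons (0.0559% to 43.4% of all genes called), with 0 at an unadjusted p under 0.05 and a lowest adjusted p of 0.484, and DESeq2 also called it in 0. Its fitted log2 fold changes ran from -0.78 to 0.78.

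WT1 was a gene of 24 h in these data. It was at 0 in both control libraries. At 24 h it was at 5.93 and 4.29 CPM in DE(a), 3.55 and 3.30 CPM in APS, 4.22 and 2.32 CPM in MPS, and 1.98 and 0.361 CPM in PPS. The 2 DE(a) libraries were the highest and the 2 PPS libraries the lowest, so at this time the order of the populations was opposite to that of PAX2 and OSR1, although the APS and MPS libraries overlapped. At 48 h it lay between 0.148 and 0.739 CPM in DE(b), between 0 and 0.820 CPM in PM, and between 0 and 0.477 CPM in LM. At or under 3 counts were 2 of 8 libraries for DE(b), 2 of 8 for PM and 4 of 8 for LM, and PPS-24h replicate 2 was the only 24 h library within the range of the 48 h libraries.

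The first question was how neighboring streak populations differed at 24 h. From DE(a) to APS, activin was lowered, bFGF was added and CHIR99021 was raised, with no BMP4 in either. From APS to MPS, BMP4 was added and CHIR99021 raised, and from MPS to PPS activin was left out. The effects of reagents changed in the same step cannot be told apart. PAX2 was higher in APS than in DE(a) (adjusted p = 0.00617 in edgeR, with 0.732% of all genes called), and since DE(a) held 2 counts in all, its ratio of 42.8 has a 95% counting interval of 11.5 to 358. PAX2 rose again from APS to MPS by 2.78 ± 0.60 (log2, SE, adjusted p = 0.011), and OSR1 rose by 3.28 ± 0.80 (adjusted p = 0.0266), where 2.93% of genes were called. From MPS to PPS, where 6.14% of genes were called, 0 of the 4 genes passed. The values there were 1.1 ± 0.55 for PAX2 (adjusted p = 0.273), 1.86 ± 0.59 for OSR1 (adjusted p = 0.0705) and -1.54 ± 0.92 for WT1 (adjusted p = 0.368). The OSR1 step from MPS to PPS passed with DESeq2 (adjusted p = 0.0199) with no filter on low counts (4.5e-06) and with the identifiers of 1 symbol summed (0.0394). The 3 calls at 24 h depend on single libraries. That of PAX2 from DE(a) to APS was lost without DE(a) replicate 1 (adjusted p = 0.158), DE(a) replicate 2 (0.102) or APS replicate 2 (0.0623). That of PAX2 from APS to MPS was lost without APS replicate 1 (0.148), APS replicate 2 (0.0745) or MPS replicate 2 (0.0587). For OSR1 it was lost without any of the 4 libraries, with an adjusted p of 0.0638 to 0.215, or with only the libraries compared in the fit (0.0673).

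The second question was what day 2 of each standard protocol did to the levels reached on day 1. WT1 fell in all 3. From DE(a) at 24 h to DE(a)-DE(b) it fell by 3.52 (log2, SE 1.01, adjusted p = 0.0121, 28% of genes called). From APS at 24 h to APS-PM it fell by 4.98 (SE 1.13, adjusted p = 0.0024, 25.1% called). From MPS at 24 h to MPS-LM it fell to a ratio of 0.0236 (95% counting interval 0.00482 to 0.0705, adjusted p = 0.00163, 31.3% called), with 3 counts left in MPS-LM. OSR1 rose by 6.96 ± 0.79 from APS to APS-PM (adjusted p = 1.9e-06), a ratio of mean CPM of 138, and fell by 2.46 (SE 0.75, adjusted p = 0.0164) from MPS to MPS-LM. PAX2 rose by 1.75 ± 0.58 in the first of these (adjusted p = 0.0321) and fell by 2.79 (SE 0.60, adjusted p = 0.00125) in the second. Neither PAX2 nor OSR1 had more than 2 counts on either side of the DE protocol, and no fold is given there. The fall of WT1 to DE(a)-DE(b) was lost without DE(a) replicate 1 at 24 h (adjusted p = 0.0542) or DE(a)-DE(b) replicate 2 (0.132), and the rise of PAX2 to APS-PM without either APS library at 24 h (0.191 and 0.0706) or APS-PM replicate 2 (0.205). The fall of OSR1 to MPS-LM was lost without MPS replicate 2 at 24 h (0.0874) or MPS-LM replicate 2 (0.187), or with only the libraries compared (0.101).

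The third question was how the day 2 media differed when averaged over the 4 day 1 populations, 8 libraries against 8. DE(b) was below PM for PAX2 (mean 0.398 against 10.3 CPM, fitted log2 fold change -7.27, SE 0.50, adjusted p = 2.4e-10 in edgeR) and for OSR1 (mean 2.33 against 41.9 CPM, fitted log2 fold change -7.36, SE 0.44, adjusted p = 3.1e-11), with no overlap between the libraries of the 2 media and in 4 of 4 day 1 populations. The fitted values average log2 differences over the populations and depend on the prior count where libraries are at 0, and the DE(b) means rest mostly on PPS-DE(b), with OSR1 at 8.95 CPM there and at most 0.221 CPM in the other DE(b) conditions. In that comparison 43% of genes were called. OSR1 was lower in LM than in PM (log2 fold change -5.45, SE 0.35, adjusted p = 7.1e-11, 42% of genes called), again with no overlap and in 4 of 4 populations. PAX2 was also lower in LM than in PM (log2 fold change -1.23, SE 0.29, adjusted p = 0.0015), but the media overlapped, and the libraries were apart only for APS and MPS. PAX2 was higher in LM than in DE(b) (mean 4.82 against 0.398 CPM, fitted log2 fold change 6.04, SE 0.53, adjusted p = 9.1e-09, 39.6% called), without overlap in 4 of 4 populations. OSR1 in LM against DE(b) gave a fitted mean of the log2 differences of 1.91 ± 0.65 (adjusted p = 0.024), while the mean CPM was lower in LM (0.891 against 2.33 CPM). It was higher in LM in 2 populations and lower in 1, PPS, so this average has no single direction. The call was lost without DE(a)-DE(b) replicate 1 (adjusted p = 0.0667), DE(a)-DE(b) replicate 2 (0.0549), MPS-DE(b) replicate 1 (0.0506), MPS-LM replicate 1 (0.277), PPS-LM replicate 1 (0.0855) or DE(a)-LM replicate 2 (0.058). PAX8 and WT1 were called in 0 of these 3 comparisons, with the lowest adjusted p of 0.261 for WT1 in LM against DE(b).

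**Figure D2:**
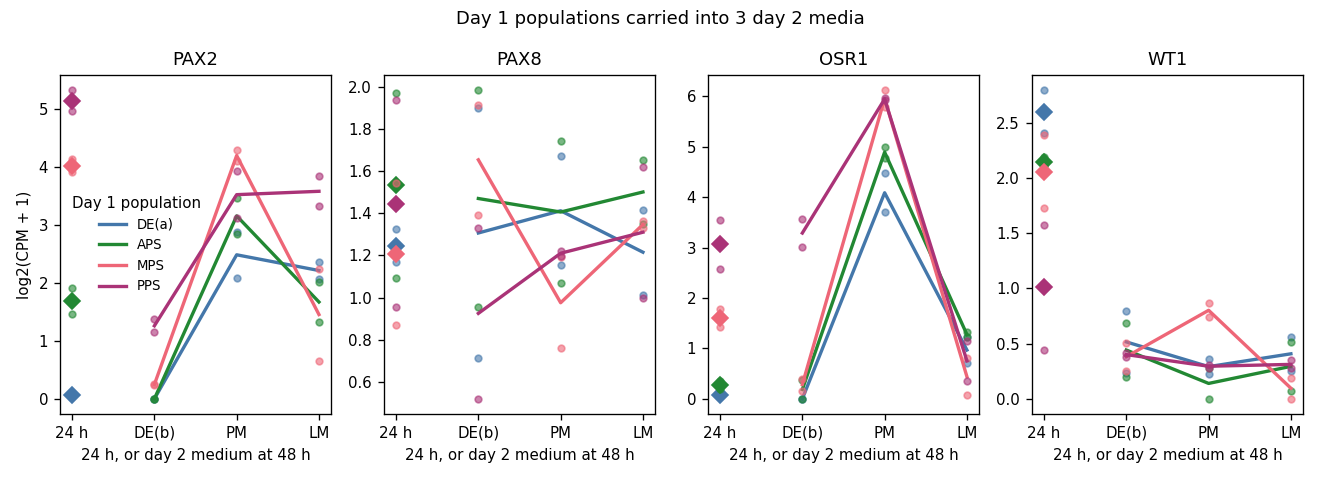
log2(CPM + 1) of each gene (vertical axes, a different range for each gene) at 24 h (diamonds, mean of 2 libraries) and in the 3 day 2 media (lines join the means of 1 day 1 population, small points are libraries). In DE(b), the PPS line lies above the others for OSR1 (8.95 CPM against at most 0.221 CPM) and PAX2, the PM means of OSR1 are the highest for every population, and in LM the PPS line lies above the others for PAX2 (11.2 CPM).

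The fourth question was whether the day 1 population left a trace within a medium. In DE(b), PAX2 and OSR1 differed among the 4 populations (F test of edgeR with 3 degrees of freedom, adjusted p = 0.000212 and 1.2e-06, 16.6% of genes called). PPS-DE(b) had the highest levels of both genes. Against DE(a)-DE(b), which held no count of either gene, PPS-DE(b) was at least 17.8-fold higher for PAX2 (adjusted p = 0.000615) and at least 115-fold higher for OSR1 (adjusted p = 1e-05), taking 3 counts over the group as the floor, with 17.4% of genes called. MPS-DE(b) and APS-DE(b) against the same standard gave 0 calls, where 5.59% and 0.469% of genes were called, and with no filter on low counts MPS-DE(b) passed for both genes (adjusted p = 0.0372 and 0.0182). Some mesoderm markers were also high in PPS-DE(b), where TBX6 was at 51.1 CPM against 2.09 CPM in DE(a)-DE(b), MSGN1 at 12.3 against 0 CPM, HAND1 at 84.7 against 0.0292 CPM and FOXC1 at 75.5 against 9.28 CPM. TCF15 was lower (0.750 against 1.30 CPM), and MEOX1 (0.0847 CPM) and FOXF1 (1.18 CPM) were low in PPS-DE(b). The 2 identifiers of GATA4 were at 43.9 and 84.2 against 42.2 and 74.0 CPM. HAND1 was also at 23.9 CPM in MPS-DE(b), where OSR1 was at 0.221 CPM. SOX17 was at 168 against 385 CPM and FOXA2 at 6.59 against 105 CPM. The part of these markers' cells in the levels of PAX2 and OSR1 was not tested. OSR1 in PPS cells was at 7.86 CPM at 24 h and 8.95 CPM after DE(b), a ratio of 1.14, whereas PAX2 went from 34.8 to 1.40 CPM, a ratio of 0.0404. In PM the populations did not pass for PAX2 (adjusted p = 0.183) or OSR1 (0.0819), with 7.47% of genes called, although OSR1 passed with DESeq2 (0.0247), with only the PM libraries in the fit (0.0379) and with no filter (1.5e-08), and PAX2 with no filter (0.000471). Against APS-PM, 0 of the 4 genes were called in DE(a)-PM, MPS-PM or PPS-PM, where 0.0559%, 0.447% and 5.25% of genes were. The OSR1 differences from APS-PM were -0.79 ± 0.54, 1.1 ± 0.54 and 1.09 ± 0.54 (log2, SE).

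In LM, PAX2 differed among the populations (F test of edgeR, adjusted p = 0.00665, 19.6% of genes called) and OSR1 did not pass (0.345), although it did with no filter on low counts (0.00572). PAX2 was higher in PPS-LM than in MPS-LM by 2.31 ± 0.59 (log2, SE, adjusted p = 0.0231), where 5.6% of genes were called. DE(a)-LM and APS-LM against MPS-LM gave 0 calls among the 4 genes, with 14.4% and 3.79% of genes called. The F test was lost without PPS-LM replicate 2 (adjusted p = 0.119) or with only the LM libraries in the fit (0.0803). The PPS-LM call was lost with only the libraries compared (0.148) and without PPS-LM replicate 2 (0.201) or MPS-LM replicate 1 (0.212), the MPS-LM library with the low PAX2 value of 0.582 CPM. PAX2 in DE(a)-LM against MPS-LM passed without MPS-LM replicate 2 (0.0208), and OSR1 in APS-LM against MPS-LM without MPS-LM replicate 1 (0.0457). The interaction of day 1 and day 2 treatment, tested over the 12 conditions at 48 h, passed for PAX2 (adjusted p = 0.00667) and OSR1 (0.000145) and not for PAX8 (0.962) or WT1 (0.52), with 13.1% of genes called.

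Against the undifferentiated control, PAX2, OSR1 and WT1 were called only as higher. The share of all genes called was 19% for DE(a), 24.5% for APS, 30% for MPS and 29.8% for PPS at 24 h. For cells moved to DE(b) it was 34.7%, 38.4%, 38.3% and 34.6% in the order DE(a), APS, MPS and PPS, in PM 31.4%, 35%, 35.8% and 40.9%, and in LM 34.9%, 43.4%, 41.6% and 41.1%. PAX2 was called in 12 of 16 comparisons, all but DE(a) at 24 h and DE(b) after DE(a), APS and MPS. The largest of its ratios, for PPS at 24 h, was 469 (95% counting interval 159.9 to 2275, 3 control counts, adjusted p = 2.1e-07 in edgeR). OSR1 was called in 11, namely MPS and PPS at 24 h, PPS-DE(b) and all conditions in PM and LM, and was at least 833-fold higher in MPS-PM (adjusted p = 4.3e-08) and at least 111-fold higher in PPS at 24 h (adjusted p = 3.8e-06). It was also called in APS at 24 h, APS-DE(b) and MPS-DE(b) with DESeq2. Its calls in MPS-LM (at least 4.99-fold, adjusted p = 0.0186) and PPS-LM (at least 10.4-fold, 0.00284) were lost without replicate 1 of that condition (0.413 and 0.0646), and the former also without either control library (0.0944 and 0.0737).

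WT1 was called against the control in 14 of 16 comparisons, all but APS-PM and MPS-LM. At 24 h it was at least 70.0-fold higher in DE(a) (adjusted p = 0.000158 in edgeR), 46.7-fold in APS, 45.4-fold in MPS and 17.03-fold in PPS, and these calls held without any single library. At 48 h the bounds of the called conditions ran from 3.09-fold in PPS-PM to 10.1-fold in MPS-PM. Apart from MPS-PM, each of the 48 h calls was lost without control replicate 1 or control replicate 2, with an adjusted p of 0.061 to 0.179. Each was also lost without a library of the condition itself, with an adjusted p of 0.0516 to 0.307, namely replicate 1 of the 4 DE(b) conditions, replicate 2 of DE(a)-LM and of APS-LM, and either replicate of DE(a)-PM, PPS-PM and PPS-LM.

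Over the 17 condition means of log2(CPM + 1), PAX2 and OSR1 had a Pearson correlation of 0.67 (Spearman 0.77), and the other 5 pairs lay between -0.36 and 0.05. The conditions share day 1 and day 2 treatments and libraries of similar depth, so these are descriptions. PPS at 24 h, with the highest PAX2 and an OSR1 level of 7.86 CPM, and the 4 PM conditions, with the highest OSR1 and 4.82 to 17.4 CPM of PAX2, lay apart from each other.

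**Figure D3:**
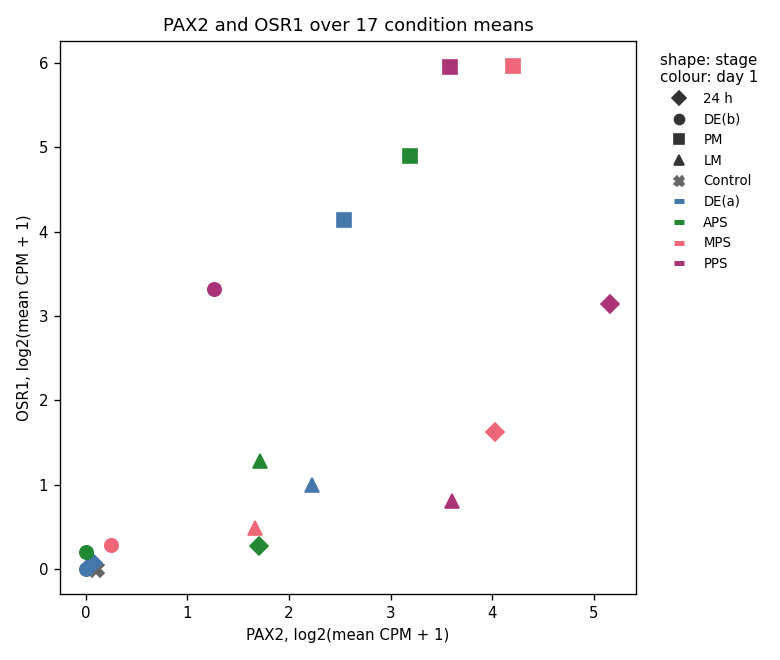
Condition means of PAX2 (horizontal axis) and OSR1 (vertical axis) as log2(CPM + 1), with color for the day 1 population and shape for the stage. The 4 PM conditions lie at the top, PPS at 24 h at the far right, and DE(b) after DE(a), APS and MPS near the origin with the control, while PPS-DE(b) has OSR1 (8.95 CPM) with little PAX2 (1.40 CPM).

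By the same measure, searched over 13737 tested genes of at least 5 CPM in some condition, the genes most like PAX2 were MCOLN3 (0.95, highest in PPS at 24 h), SCML1 (0.93), FNDC3A (0.93), NAB2 (0.92) and ISM1 (0.92). Those most like OSR1 were SCAPER and HES7 (0.97 each), SMC6 (0.96), ELP6 (0.96) and VWA2 (0.95), all highest in PPS-PM. HES7, a gene of the segmentation clock of presomitic mesoderm, went from 0.0266 CPM in the control to 132 CPM in PPS-PM. Those most like WT1 were HNRNPA1P66 (0.93), WNT3 (0.93), CHRNA1 (0.92), SHLD2P3 (0.91) and GLIPR1L1 (0.90). WNT3, a ligand needed to form the streak, has more than 1 identifier in the tables, and HNRNPA1P66 and SHLD2P3 are pseudogenes whose reads may be shared with their parent genes, so their values are uncertain. For PAX8 the highest correlation was 0.70, with KDM5C. With Spearman correlation, 4 of the 5 genes remained for PAX2, 2 for PAX8 and 0 for OSR1 and WT1.

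The wider nephric program was followed with 20 listed genes of intermediate mesoderm, nephric duct and nephron progenitors, of which 18 were tested after rows of 1 symbol had been summed, since some of them, such as LHX1 and WNT9B, have 2 identifiers. From DE(a) to APS at 24 h, 2 rose and 0 fell (0.777% of 17236 symbols called), SALL1, a zinc finger factor of kidney and limb, by 1.29 ± 0.17 (log2, SE, adjusted p = 0.000128 in edgeR) and FOXC1 by 1.64 ± 0.32. From APS to MPS 3 rose and 3 fell (3.32% called). GATA3, a duct factor also used by amnion, rose by 4.15 ± 0.43 (adjusted p = 3e-06), while RET, the GDNF receptor of the duct, fell by 2.32 (SE 0.41) and EYA1 fell by 2.46 (SE 0.52). From MPS to PPS 1 rose and 3 fell (7.05% called), with SALL1 up by 0.64 ± 0.17 to 630 CPM and LHX1, a factor of the early duct and of the anterior streak, at a log2 fold change of -3.01 (SE 0.51) and down to 2.25 CPM. The median log2 fold change of the list was 0.95, -0.98 and 0.34 in these 3 steps, against 0.00, -0.01 and 0.01 over all symbols.

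In the day 2 media the listed genes went apart. In PM against DE(b), 6 were higher and 9 lower (44.9% of symbols called). LHX1 was at a mean of 505 CPM in DE(b) and 1.19 CPM in PM (adjusted p = 2.3e-16 in edgeR), which is opposite in direction to PAX2. CITED1, a coactivator of nephron progenitors, was at 59.9 CPM in PM and 0.245 CPM in DE(b) (adjusted p = 1.3e-13), the direction of PAX2 and OSR1. In LM against PM, 6 were higher and 7 lower (44% called). FOXC1, a factor of presomitic and intermediate mesoderm, was lower in LM (log2 fold change -7.92, SE 0.22, 1.66 against 224 CPM), as was CITED1 (-7.47, SE 0.39). In LM against DE(b), 2 were higher and 9 lower (41.5% called). The higher ones were GATA3 by 4.69 ± 0.22 (87.5 against 4.81 CPM) and ITGA8, the integrin of nephrogenic mesenchyme, by 4.92 ± 0.60 (10.2 against 0.418 CPM). The median log2 fold change of the list was 1.53 in DE(b) against PM, 0.92 in LM against PM and -1.39 in LM against DE(b), against at most 0.02 in size over all symbols.

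**Figure D4:**
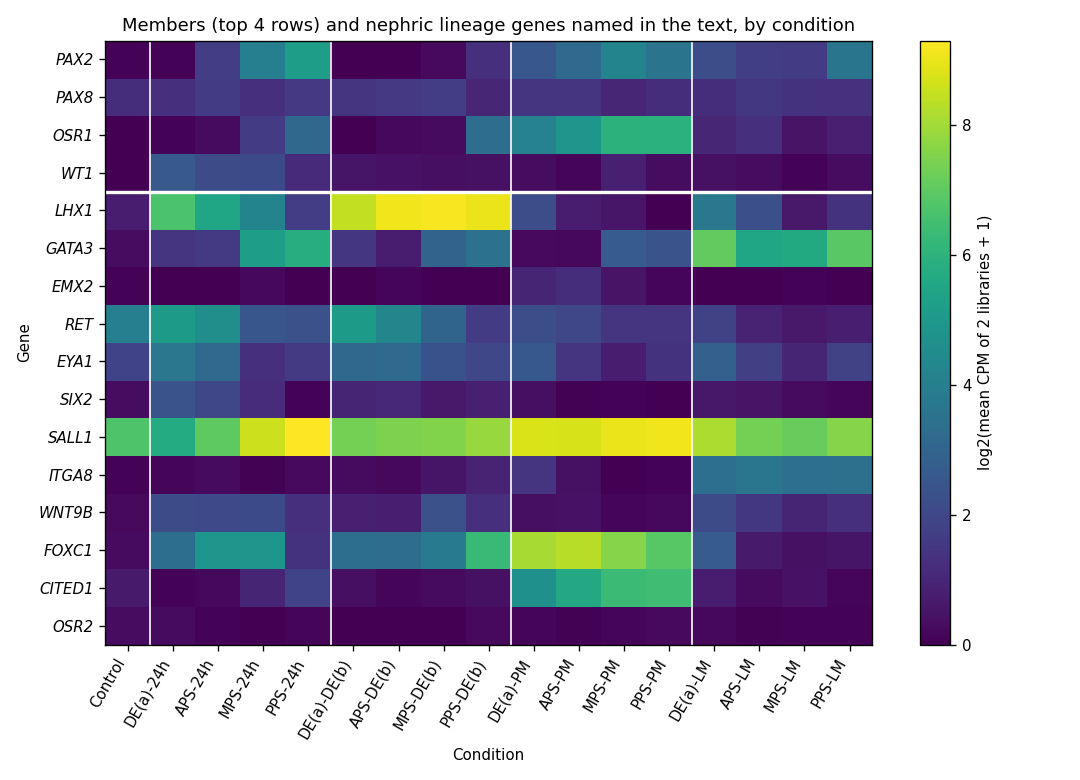
Color gives log2(mean CPM of 2 libraries + 1) for the 4 intermediate mesoderm genes (top rows) and nephric lineage genes named in the text, apart from HOXA11 (lower rows), in the 17 conditions (columns). LHX1 is brightest in DE(b), FOXC1 and CITED1 in PM, and ITGA8 in LM, while GATA3 is bright in LM and also in MPS and PPS at 24 h.

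Over day 2 of the standard protocols, genes of the list were called in both directions. To DE(a)-DE(b) and to MPS-LM, the calls among the 18 tested were near the share over all symbols, so only single genes are described. To DE(a)-DE(b), 4 rose and 2 fell (30% of symbols called), and LHX1 rose by 1.73 ± 0.42 (adjusted p = 0.00342 in edgeR) and SALL1 by 1.58 ± 0.17. To APS-PM, 4 rose and 7 fell (26.9% called), where FOXC1 rose by 3.37 ± 0.33 and LHX1 fell by 6.13 (SE 0.60). To MPS-LM, 1 rose and 6 fell (33.4% called), the 1 being ITGA8, at 9.64 CPM against 0.0434 CPM, while LHX1 fell by 4.97 (SE 0.63) and FOXC1 fell by 6.35 (SE 0.48). For genes of nephron progenitors the highest condition mean is given gene by gene, since CPM is not compared between genes. SIX2 reached 4.16 CPM, EMX2 1.30 CPM and OSR2 0.25 CPM. SALL1 reached 630 CPM in PPS at 24 h (106 CPM in the control) and CITED1 86.6 CPM in PPS-PM. HOXA11 reached 26.9 CPM in PPS-LM and EYA1 11.9 CPM in DE(a) at 24 h.

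Of the other 7 PAX genes, 4 were tested, and PAX3, a factor of somite and neural crest progenitors, was the only 1 of these 4 over 5 CPM, the next highest being PAX7 with 3.84 CPM in APS-DE(b). It rose from APS to MPS by 6.69 ± 0.76 (log2, SE, adjusted p = 7.8e-06 in edgeR) and from MPS to PPS by 1.97 ± 0.52 (adjusted p = 0.0201), to 61.1 CPM, and against PM its log2 fold change was -2.53 in LM and -3.76 in DE(b). At 24 h it was at 0.24 CPM in DE(a) and 0.137 CPM in APS, so its order there was that of PAX2 apart from these 2 low levels. In LM against PM, 1 of the 4 was higher and 3 were lower (44% of symbols called). Of 8 genes of differentiated kidney, 5 were tested. In LM against PM, 3 of these were higher and 1 lower (44% of symbols called), with LRP2, the endocytic receptor megalin, at 104 against 4.13 CPM (adjusted p = 7.1e-14) and SYNPO at 12.8 against 3.43 CPM. The podocyte gene NPHS1 was at most 0.583 CPM and the tubule gene UMOD at most 0.0216 CPM in any condition mean.

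Cell types that share these factors were followed by their markers. Of 6 mesothelium and epicardium genes, which go with WT1, the sum was 1.58 to 55.2 CPM at 24 h, 0.276 to 3.61 CPM in DE(b), 43.9 to 509 CPM in PM and 5.78 to 41.3 CPM in LM. Most of it in PM was ALDH1A2, the retinoic acid synthase of early mesoderm, at 48.4 to 411 CPM in the condition means, and 4 of the 6 were under 1 CPM in every PM library and 3 in every 24 h library. In LM it was BNC1 that was highest in APS-LM (13.2 CPM) and MPS-LM (17.7 CPM), against 1.55 CPM in the control, with TCF21 at up to 4.55 CPM and TBX18 at up to 5.22 CPM in MPS-LM, while MSLN was at most 0.238 CPM in any condition mean. Of 7 midbrain-hindbrain and otic genes, which go with PAX2 and PAX8, the sum was 10.7 to 28.2 CPM at 24 h and 4.96 to 73.9 CPM in PM, where 6 were under 1 CPM in every library and FGF8, also a gene of presomitic mesoderm, made up the rest. DLX5 of this list was at 12.4 CPM in PPS at 24 h and 12.9 CPM in PPS-LM, the conditions with the highest PAX2 at 24 h and in LM, against 0.0492 CPM in the control. Others of the list went the other way. FGF8 was at 27.4 CPM in DE(a) and 4.76 CPM in PPS at 24 h, and EN1 was lowest in PPS-LM (2.35 CPM) among the LM conditions. EN2, WNT1, PAX5 and SOX1 were at most 1.79 CPM in any condition mean. The 5 amnion genes summed to 9.25 to 160 CPM at 24 h, 1.35 to 13.0 CPM in PM and 78.8 to 459 CPM in LM. TFAP2A was highest in PPS-LM (140 CPM) and was at 55.0 CPM in PPS at 24 h, the condition with the highest PAX2. GATA3 (54.0 CPM) and ISL1 (33.7 CPM) were also highest in PPS among the 24 h populations. At 24 h, GABRP (0.666 CPM) and VTCN1 (0.0548 CPM) went the other way and were lowest in PPS. In LM medium both were highest in PPS-LM, the LM condition with the highest PAX2, GABRP at 41.8 CPM and VTCN1 at 7.75 CPM. ISL1 was also highest there (84.9 CPM), while GATA3 was at 121 CPM there and at 134 CPM in DE(a)-LM. The 3 thyroid genes, which go with PAX8, summed to at most 15.4 CPM, and NKX2-1 was at most 0.533 CPM. The part of these cell types in the levels of the 4 genes was not tested.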

How the data were processed

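RNA was measured in 17 conditions with 2 replicates each, 34 libraries in all from the unedited ESI017 line, and E-CAD knockout libraries were not analysed here. The authors quantified reads with Salmon (v1.10.2) on a GRCh38 transcriptome, correcting for sequence and GC bias, summed transcripts to genes in R (v4.4.2) and deposited estimated counts, 1 table for each replicate number. The annotation release and strand setting are not given in the sources used here. CPM used these values as deposited, tests used them rounded to whole counts, and 0 columns were left unmatched to a sample.

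Tests used the quasi-likelihood F test of edgeR (v4.0.16, R v4.3.3) with TMM scaling, filterByExpr, 1 mean for each condition (17 residual degrees of freedom) and Benjamini-Hochberg adjustment, after a check on simulated counts. DESeq2 (v1.42.0), RLE scaling, no filter, a replicate block, subsets of libraries and leaving out each library were alternatives. The study's legends call the replicates biological without saying whether they were separate cultures, and the sample titles only number them. The p-values rest on the spread between the 2 libraries of a condition, pooled over the 17 conditions, and this spread may be technical. Counting intervals (95%) and floors cover counting error only. From each list, the 3 called genes with the largest fold change over 5 CPM were named, and for each factor the 5 genes of most like pattern, and some genes this rule names are not reported here. SIX2, OSR2, EMX2, EYA1, HOXA11, PAX7, NPHS1 and UMOD, and marker genes, were picked out after their values were seen. The 4 genes, the lists and the markers were chosen with earlier results of these data known. Summing identifiers by symbol, used for the lists, was chosen after seeing the data. Positions are from GENCODE (GRCh38). Figures used Python (v3.11.15) and matplotlib (v3.10.9).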

Additional observations from a re-analysis of the deposited data

Results flagged for a closer look

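The effect of the day 2 medium differed among the day 1 populations for PAX2 (interaction test of edgeR over the 12 conditions at 48 h, adjusted p = 0.00667) and for OSR1 (adjusted p = 0.000145). For OSR1, LM was above DE(b) after DE(a) and APS and below it after PPS (0.752 against 8.95 CPM). For PAX2, LM was below PM after APS and MPS, while after DE(a) and PPS the libraries overlapped, at 11.2 against 10.97 CPM for PPS.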

How the results depend on the processing

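Of 152 results (4 genes in 38 comparisons), no called one changed direction. Under the settings other than leaving out a library, the fitted values of PAX2 in APS-LM against MPS-LM and of PAX8 in 4 comparisons changed sign. These were called under none of the settings. Changes of sign in uncalled results were not counted over the leave-one-out fits. RLE scaling kept all 152 on their side of the threshold. With DESeq2, 5 more passed, and 12 with no filter on low counts, which raised the calls against the standard protocol of a medium from 3 to 8 and those among day 1 populations within a medium from 3 to 6. Among the added ones were OSR1 in MPS-PM (adjusted p = 0.0293) and PPS-PM (0.0137) against APS-PM and in APS-LM against MPS-LM (0.00197). With only the compared libraries in the fit, 108 kept their side, 5 were lost and 1 was gained, and a gene under the filter in such a subset gave no value. OSR1 in LM against DE(b) was lost there at 1.89 (log2, adjusted p = 0.0586) and ran from 1.21 to 3.07 on leaving out 1 library. Over all leave-one-out fits 818 results kept their side, 60 were lost and 2 gained, and the 3 calls among 24 h populations ran from 0 to 3. Calls against the control ran from 27 to 37 (37 with all libraries). Rows summed by symbol, an alternative added after seeing the data, gave 135 unchanged and 1 gained.

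Same-numbered replicates deviated together only in part. The correlation of their deviations ran from -0.172 to 0.531 over 136 pairs of conditions (88 over 0.1), so the numbers were not taken as a pairing, and the replicate block changed 0 of the 152 calls.

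Counts over all genes moved more. With no filter, only the compared libraries and DESeq2, in this order, the 131 genes of APS against DE(a) at 24 h became 570, 73 and 264, the 524 of MPS against APS 1144, 267 and 809, and the 1098 of PPS against MPS 1876, 296 and 1675 (1717 with the block). The 84 of APS-DE(b) became 609, 0 and 246 (138 with the block), the 10 of DE(a)-PM 444, 0 and 96, the 80 of MPS-PM 525, 2 and 214, the 940 of PPS-PM 1674, 160 and 1418, and the 679 of APS-LM 1421, 244 and 1176 (1046 with the block), each against its standard protocol. Among populations within PM, 1337 became 2528, 272 and 2029. With no filter and with only the compared libraries, the 1000 of MPS-DE(b) became 1713 and 548. The interaction went from 2351 to 4091 with no filter and 3634 with DESeq2, and PPS-LM from 1002 to 1560 with no filter. With only the compared libraries, DE(a)-DE(b) against 24 h fell from 5011 to 3161 and APS-PM against 24 h from 4492 to 2682.

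TMM-scaled CPM moved 5 condition means by more than 1 SD, PAX2 and OSR1 in DE(a) at 24 h (0.0552 CPM each), PAX8 in PPS-PM (1.28) and MPS-LM (1.60) and OSR1 in PPS-PM (59.1). With a pseudocount of 0.1, 3 of the 5 most alike genes remained for PAX2, PAX8 and WT1 and 2 for OSR1. Few counts lay behind WT1 at 48 h, with 2, 2 and 4 of 8 libraries at 3 counts or fewer in DE(b), PM and LM, and PAX2 (6 of 8) and OSR1 (4 of 8) in DE(b).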
